A study of Mus musculus with 4 samples.

Results

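Aminoacyl-tRNA synthetases join each amino acid to its transfer RNA (tRNA), the step that supplies the ribosome with charged tRNAs. Cytosolic enzymes serve the translation of nuclear messages, and a separate set of nuclear genes encodes enzymes that are imported into mitochondria, where the subunits of the respiratory chain that the mitochondrial genome encodes are translated. Several cytosolic enzymes are held in the multisynthetase complex by scaffold proteins, and many cytosolic synthetase genes are known targets of the transcription factor ATF4, which is made when amino acids are scarce. The 36 genes described here were taken by symbol alone from the 23361 genes of the deposited table. By symbol, 20 of them encode cytosolic enzymes and 16, with symbols ending in 2, encode mitochondrial enzymes. *Gars* and *Kars*, for the glycyl and lysyl enzymes, each make enzyme for both compartments and were counted as cytosolic. *Eprs* encodes a joined glutamyl and prolyl enzyme, and *Farsa* and *Farsb* encode the subunits of the cytosolic phenylalanyl enzyme.

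RNA-seq was performed on early T lineage progenitors (ETP), the most immature T lineage cells of the thymus, sorted as Lin- CD44+ CD25- CD117+ cells from female C57BL6 mice. There were 2 libraries of young ETP, from mice aged 4 to 6 weeks, and 2 of old ETP, from mice aged 72 weeks, although the deposited table names the old condition 20m. No treatment or genetic change was given for either age. Neither the number of mice behind a library nor the use of separate animals for each library is stated in the labels, so the p-values below cover the spread between libraries alone, and that spread may be technical.

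Depth differed between libraries, with 4839341 to 16658864 fragments per library, and the second library of each age was the shallower. The 36 genes took 0.438% to 0.598% of the fragments. *Kit*, *Cd44* and *Il2ra*, which encode the proteins of the sort gate CD117, CD44 and CD25, were at means of 930.1, 507 and 33.1 CPM (fragment counts per library size, after normalization by the trimmed mean of M-values, TMM) in young ETP and at 940.5, 578 and 27.4 CPM in old ETP. No marker of other cells passed edgeR, with a smallest adjusted p of 0.325. The summed level of 14 conventional dendritic cell markers was 949 and 1511 CPM in the young libraries and 6740 and 21523 CPM in the old libraries. All 12 of these markers that were tested were higher in old ETP (median log2 difference 3.63), led by *Clec9a* at 4.49 and *Xcr1* at 4.29, and none of the 14 was at 0 in any library. The 14 markers of NK and innate lymphoid cells summed to 300.1 and 361 CPM in the young and 433 and 529 CPM in the old libraries, but per length (defined below) their sums overlapped between the ages, at 716 and 898 in the young and 835 and 879 in the old libraries. Of the 9 tested, 7 were higher in old ETP and 2 lower (*Nkg7* at log2 -0.16 and *Il7r* at -0.19), the largest differences were those of *Ncr1* and *Klrk1* at 5.67 and 3.86, and *Tbx21* was at 0 in both young libraries. The 7 B cell markers summed to 34.3 and 27.4 CPM in the young and 31.1 and 58.4 CPM in the old libraries, which overlapped. *Cd22*, *Cd79a* and *Ms4a1* were higher in both old than in both young libraries, with *Cd79a* and *Ms4a1* at 0 in the second young library, while *Ebf1* was at 0 in both old libraries and *Cd79b*, which alone of this list was tested, had a log2 fold change of -0.15. The part of these other cells in the differences between ages given below was not tested. In sorted bulk samples fewer cells of a type and less RNA per cell cannot be told apart.

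All 36 genes were expressed in young and old ETP, and all of them had an FPKM (fragments scaled by transcript length and library) of at least 1 in at least 2 libraries, as did 10080 genes in all. The lowest level of any of them in any library was 4.36 CPM, for the mitochondrial prolyl enzyme *Pars2* in the second old library, which rested on 20 fragments. Levels of different genes were compared per length, as FPKM rescaled to the same sum in each library. On this scale the mitochondrial leucyl enzyme *Lars2* had the highest mean, at 1249.7, and its lowest library (573) lay above the highest library of every other member. *Kars* followed at a mean level per length of 164 and the aspartyl enzyme *Dars* at 160.5, and their ranges over the 4 libraries overlapped. From *Kars* down to the isoleucyl enzyme *Iars*, at a mean of 109, each of the 7 cytosolic genes overlapped with the next in this order. The glycyl enzyme *Gars* came after them at a mean of 90.1, below the lowest library of *Iars* and above the highest library of the glutaminyl enzyme *Qars*. The 17 highest members apart from *Lars2* itself included 16 cytosolic genes and the first mitochondrial gene, *Iars2*, at a mean of 43.5. The lowest members were mitochondrial, with *Pars2* at 7.26 and the alanyl enzyme *Aars2* at 7.08. Among the cytosolic genes the cysteinyl enzyme *Cars* was lowest, at 17.8.

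**Figure D1:**
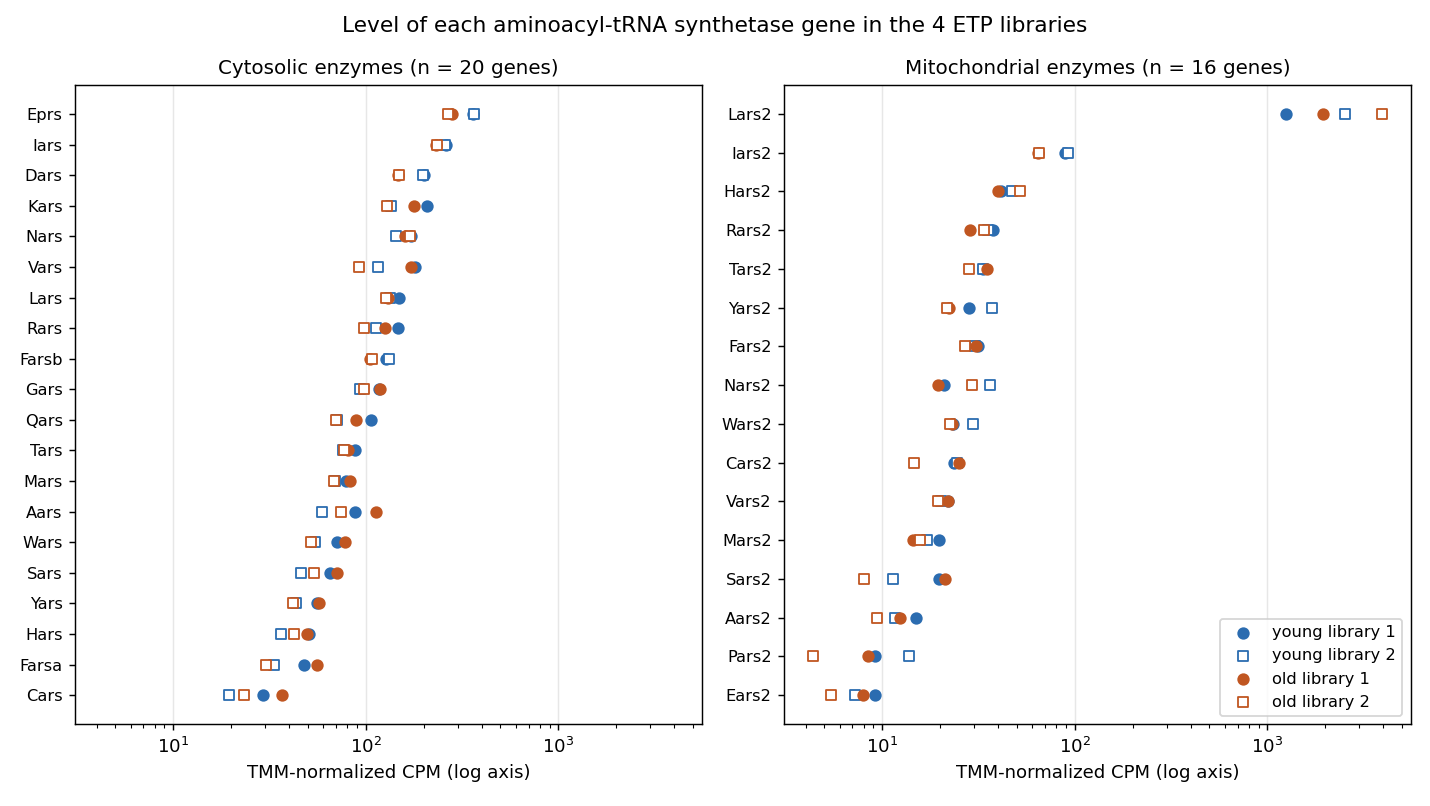
TMM-normalized CPM (log axis) of each of the 20 cytosolic (left) and 16 mitochondrial (right) genes in young libraries (blue) and old libraries (orange), with circles for library 1 and open squares for library 2 of each age. *Lars2* lies between 1244 and 3941 CPM, above all other members, and for most cytosolic genes the circles of an age lie above its squares.

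No member passed the edgeR quasi-likelihood test between old and young ETP, with adjusted p = 0.999 for each, where 0 of the 10080 genes tested passed and the percentage called was 0. At an unadjusted p under 0.05, 0 of the 36 members and 561 of all genes (5.57%) were called. DESeq2 called 225 genes (2.23%) and 0 members. The SE of the members' estimates ran from 0.24 to 0.57, beside log2 fold changes of -0.80 to 0.64. The smallest unadjusted p was 0.0933 (edgeR), for *Iars2*. An exact two-sided permutation test of 2 libraries against 2 cannot give a p below 0.333, so no such test was made.

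Most mitochondrial genes had lower fitted levels in old ETP, while the cytosolic genes were divided. Of the 16 mitochondrial genes, 14 had a lower fitted level in old ETP, and their median log2 fold change was -0.23. Of the 20 cytosolic genes, 10 were higher and 10 lower, with a median of -0.03, beside -0.03 over all genes tested, of which 5381 of 10080 were lower. The count of cytosolic genes that were lower was 18 of 20 without the second young library, without the first old library and on both FPKM scales below, and 6 of 20 without the first young library, while 11 to 15 of the 16 mitochondrial genes were lower under these settings and without the second old library. Members are not replicates, so the distance between the compartments was not tested. The order of the medians was the same when each library was left out, but their distance, 0.20 with all libraries, ran from 0.04 without the first old library to 0.32 without the first young library. The cytosolic median itself changed sign with the library left out, from -0.16 without the first old library and -0.15 without the second young library to 0.08 without the second old library and 0.19 without the first young library. On the authors' FPKM scale the distance moved with the pseudocount. With log2(FPKM + 1) the median of all genes was -0.27 and the medians relative to it were -0.03 for cytosolic and -0.07 for mitochondrial genes, a distance of 0.04, and with log2(FPKM + 0.1) the distance was 0.17.

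**Figure D2:**
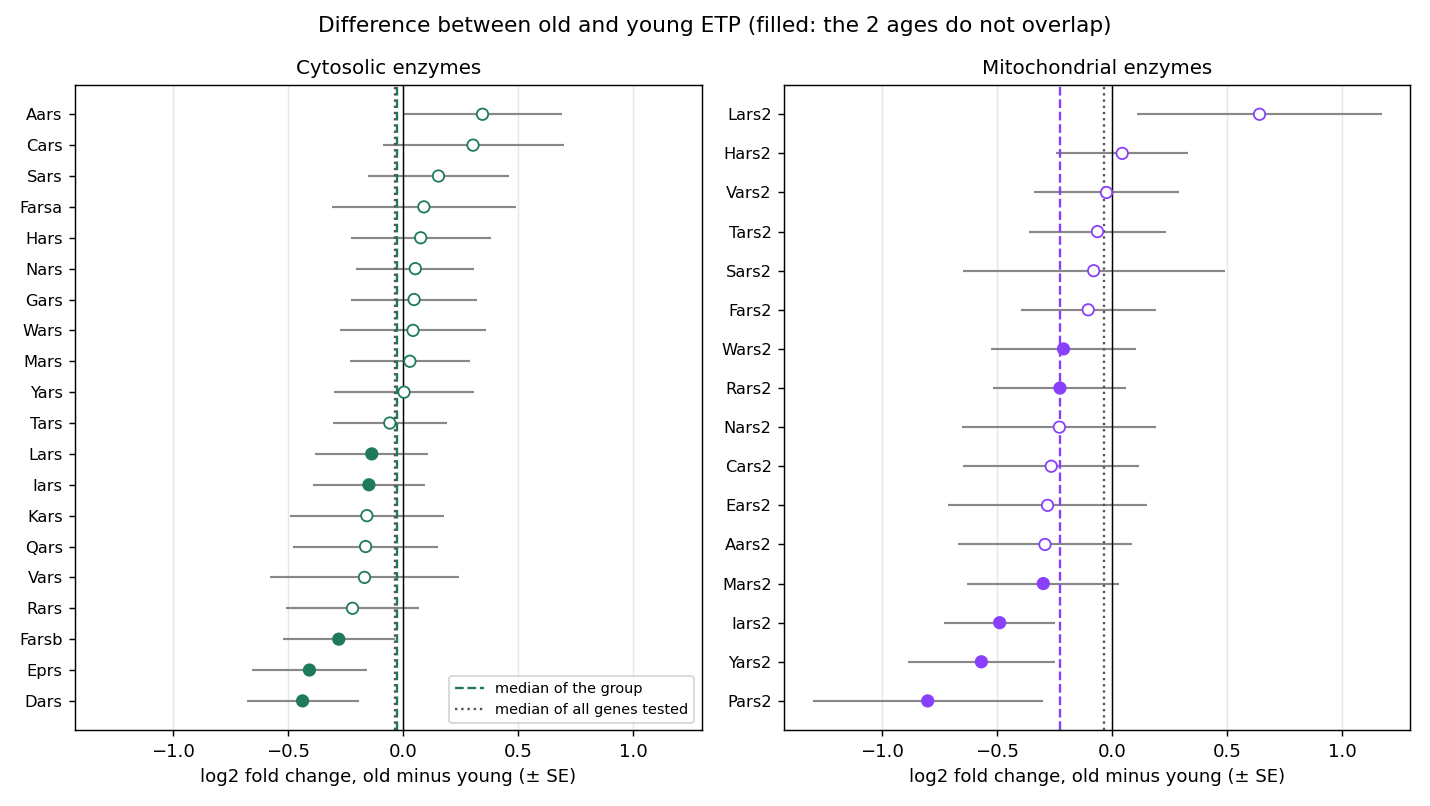
Log2 fold change of each gene, old minus young, with its SE from edgeR (bars), for cytosolic (left) and mitochondrial (right) enzymes. Filled points are genes whose young and old libraries do not overlap in CPM. Dashed lines are the group medians (-0.03 and -0.23) and the dotted line is the median of all genes tested (-0.03). All 11 filled points lie below 0.

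In CPM, both old libraries lay below both young libraries for 11 of the 36 members, where 1565 of 10080 genes (15.5%) had this pattern. Overlap of the ages is given in CPM here and below unless per length is named. No member had both old libraries above both young libraries, where 1625 of 10080 genes (16.1%) did. The 11 were the cytosolic genes *Dars*, *Eprs*, *Farsb*, *Iars* and the leucyl gene *Lars*, and the mitochondrial genes *Iars2*, *Pars2*, the methionyl gene *Mars2*, the arginyl gene *Rars2*, the tryptophanyl gene *Wars2* and the tyrosyl gene *Yars2*. Which members separated depended on the scale. Per length, the ages of *Iars*, *Rars2* and *Wars2* overlapped. *Rars*, *Aars2*, *Ears2*, *Fars2* and *Tars2*, which overlapped in CPM, were lower in both old libraries per length. The share of all genes that separated per length was not counted, so the shares above hold for CPM only. For 7 members the fitted difference between ages was also larger than the difference in CPM between the libraries of either age. These were *Dars*, *Eprs*, *Farsb*, *Iars*, *Iars2*, *Mars2* and *Yars2*. For the other 29 the libraries of an age differed by more than the ages did. The share of all genes tested with the trait of the 7 was not counted, so whether it is common among genes is not known.

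*Dars* was at 201 and 198 CPM in young and 147 and 148 CPM in old ETP, for a fitted log2 fold change of -0.44 ± 0.24 (SE, adjusted p = 0.999, edgeR). *Eprs* was at 360 and 365 CPM in young and 281 and 267 CPM in old ETP, for a fitted log2 fold change of -0.41 ± 0.25 (adjusted p = 0.999, edgeR). *Farsb* was at 127 and 131 CPM in young and 104 and 108 CPM in old ETP, a difference of -0.28 ± 0.24 (adjusted p = 0.999, edgeR). In CPM the libraries of an age lay close together in these 3 genes and the ages were apart. Leaving out any library kept the fitted values between -0.46 and -0.39 for *Dars*, between -0.42 and -0.40 for *Eprs*, and between -0.33 and -0.21 for *Farsb*. Per length the young libraries lay further apart, at 169.6 and 208.1 for *Dars*, 130.9 and 166.9 for *Eprs* and 112.3 and 144.5 for *Farsb*. The ages of these genes still did not overlap on that scale. *Farsa*, the partner subunit of *Farsb* in the same enzyme, was at 47.6 and 33.2 CPM in young and 55.5 and 30.3 CPM in old ETP, and its ages overlapped. *Iars* was at 260 and 257 CPM in young and 233 and 234 CPM in old ETP, a smaller difference of -0.15 that was still larger than the spread within each age. *Lars* was at 149 and 134 CPM in young and 130.1 and 127 CPM in old ETP.

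The cytosolic genes with the highest fold changes had ages that overlapped. The alanyl gene *Aars* was at 87.7 and 59.4 CPM in young and 113 and 74.1 CPM in old ETP, for a fitted log2 fold change of 0.35 ± 0.34 (adjusted p = 0.999, edgeR). *Cars* was at 29.2 and 19.4 CPM in young and 36.7 and 23.3 CPM in old ETP (0.30 ± 0.39). The seryl gene *Sars* was at 65.5 and 46.3 CPM in young and 70.8 and 53.6 CPM in old ETP (0.15 ± 0.31). In each of these 3 genes the first library of an age was the higher, and the gap between libraries of an age was larger than the gap between ages. The value of *Aars* ran from 0.04 without the first old library and 0.09 without the second young library to 0.58 without the second old library and 0.66 without the first young library. Without the first old library, the fold changes of *Cars* and *Sars* changed sign to -0.03 each, and *Sars* was also at -0.07 without the second young library. *Kars* was at 207 and 135 CPM in young and 177 and 129 CPM in old ETP, a difference of -0.16 ± 0.33 that turned positive without the first young library (0.19) or without the second old library (0.02). The other cytosolic members (*Gars*, *Hars*, *Mars*, *Nars*, *Qars*, *Rars*, *Tars*, *Vars*, *Wars*, *Yars* and *Farsa*) overlapped between the ages in CPM. They ran from a log2 fold change of -0.22 for *Rars* to 0.09 for *Farsa*.

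Among the mitochondrial genes, *Iars2* had the smallest p. It was at 88.9 and 92.3 CPM in young and 64.1 and 65.1 CPM in old ETP, for a fitted log2 fold change of -0.49 ± 0.24 (adjusted p = 0.999, edgeR), and with any library left out it stayed between -0.52 and -0.44. *Yars2* was at 28.1 and 37.3 CPM in young and 22.3 and 21.8 CPM in old ETP, a difference of -0.57 ± 0.32 (adjusted p = 0.999, edgeR). Both genes were lower in each old library than in each young library, and the value of *Yars2* ran from -0.76 without the first young library to -0.35 without the second young library. *Mars2* was at 19.7 and 17.1 CPM in young and 14.4 and 15.7 CPM in old ETP, with a log2 fold change of -0.30. *Pars2* had the lowest fold change of all members, -0.80 ± 0.50 (adjusted p = 0.999, edgeR), at 9.13 and 13.8 CPM in young and 8.48 and 4.36 CPM in old ETP. That value moved with each library left out, to -0.44 without the second old, -0.48 without the second young, -1.08 without the first young and -1.34 without the first old library. *Hars2*, the mitochondrial histidyl gene, was at 41.1 and 47.4 CPM in young and 39.8 and 51.6 CPM in old ETP (0.05 ± 0.29), and the valyl gene *Vars2* was at 21.9 and 20.2 CPM in young and 22.0 and 19.4 CPM in old ETP (-0.02 ± 0.31). These 2 genes overlapped between ages and changed sign with the library left out. The remaining mitochondrial members (*Aars2*, *Cars2*, *Ears2*, *Fars2*, *Nars2*, *Rars2*, *Sars2*, *Tars2* and *Wars2*) ran from -0.29 for *Aars2* to -0.06 for *Tars2*.

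*Lars2* stood apart from the other 35 genes in level and in spread. It was at 1244 and 2523 CPM in young and 1935 and 3941 CPM in old ETP, for a fitted log2 fold change of 0.64 ± 0.53 (adjusted p = 0.999, edgeR). The young and old libraries overlapped, and the second library of each age was above the first by a log2 of 1.02 in young and 1.03 in old ETP, the largest such gap upward of any member. The fold change was 0.02 without the second old library, 0.22 without the first young library, 1.11 without the first old library and 1.24 without the second young library. The nuclear noncoding RNA *Malat1* also had higher levels in the second library of each age, at 4628 and 9201 CPM in young and 9658 and 16889 CPM in old ETP (0.94 ± 0.55, adjusted p = 0.999, edgeR). *Neat1*, the other nuclear noncoding RNA listed, was at 40.2 and 45.3 CPM in young and 72.6 and 96.9 CPM in old ETP. The part of these nuclear RNAs in the values of *Lars2* was not tested. Its cytosolic counterpart *Lars* differed between the libraries of an age by -0.15 in young and -0.03 in old ETP. In the annotation used, *Lars2* lies at chr9:123366927-123462666 on the plus strand of GRCm38 and shares no exonic position with another gene, but 72 bases of its longest transcript match a transcript of *Gm15564* at 98.6% identity and 50 bases match *AA474408* at 96.0%, neither of which had a row in the deposited table. The counting of reads that match more than 1 gene was not given in the sources used here.

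The second libraries also differed from the first for most other members, in the opposite direction to *Lars2*. Of the 36 members, 26 were lower in the second young library than in the first, and 26 were lower in the second old library than in the first, with 21 lower in both. For the cytosolic genes these counts were 18, 16 and 15 of 20, and the median difference was a log2 of -0.37 in young and -0.32 in old ETP, beside 0.04 and -0.02 over all genes tested. For the mitochondrial genes the counts were 8, 10 and 6 of 16. The seryl gene *Sars2* had the largest differences downward, -0.79 in young and -1.38 in old ETP. Whether the library numbers link a young with an old library is not known.

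**Figure D3:**
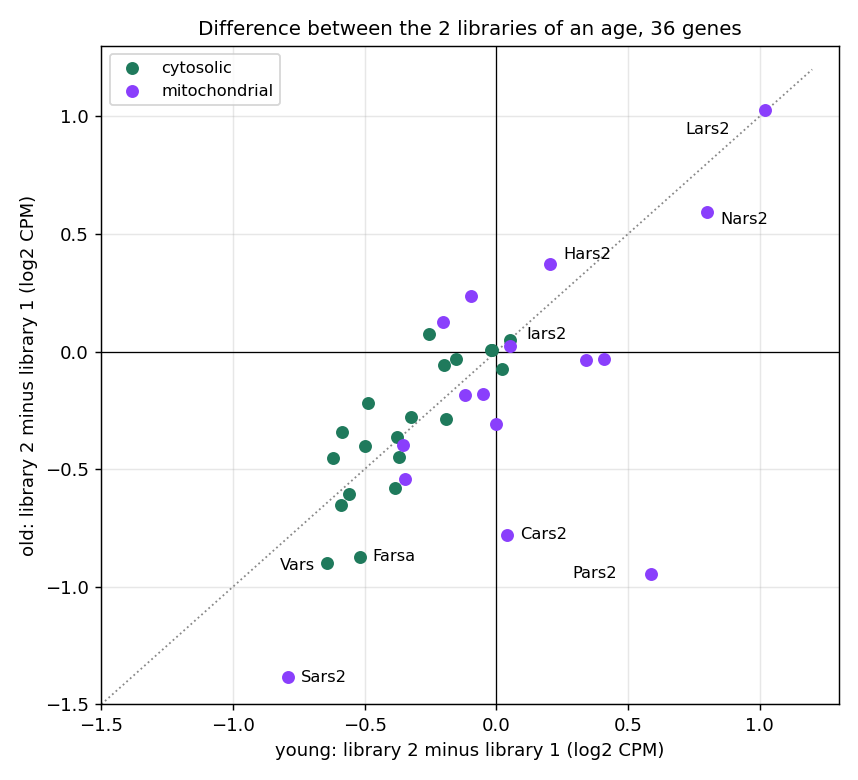
Difference in log2 CPM between the second and the first library of young ETP (horizontal axis) and of old ETP (vertical axis) for the 36 genes, with cytosolic genes in green and mitochondrial genes in purple; the dotted line marks equal differences. Most cytosolic genes lie at the lower left, *Lars2* lies at the upper right (1.02 and 1.03) and *Sars2* at the lower left end (-0.79 and -1.38).

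The GC content of the longest protein-coding transcript moved with these differences. It ran from 38.8% for *Mars2* to 60.9% for the valyl gene *Vars*. Across the 20 cytosolic genes, Spearman's rho with GC content was -0.69 for the difference between the young libraries, -0.81 for that between the old libraries and 0.59 for the difference between ages. Across the 16 mitochondrial genes the values were -0.47, -0.71 and 0.23. These genes share the same 4 libraries and the values are descriptions across genes. *Dars* had the lowest GC content of the cytosolic genes (41.2%) and the lowest fold change, while *Aars* was at 56.4% with the highest. *Vars*, with the highest GC content, had a log2 fold change of -0.17, and *Farsa*, at 56.6%, of 0.09. Transcript length had a rho of -0.02 with the age difference over all 36 genes. The part of GC content in the differences between ages was not tested.

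**Figure D4:**
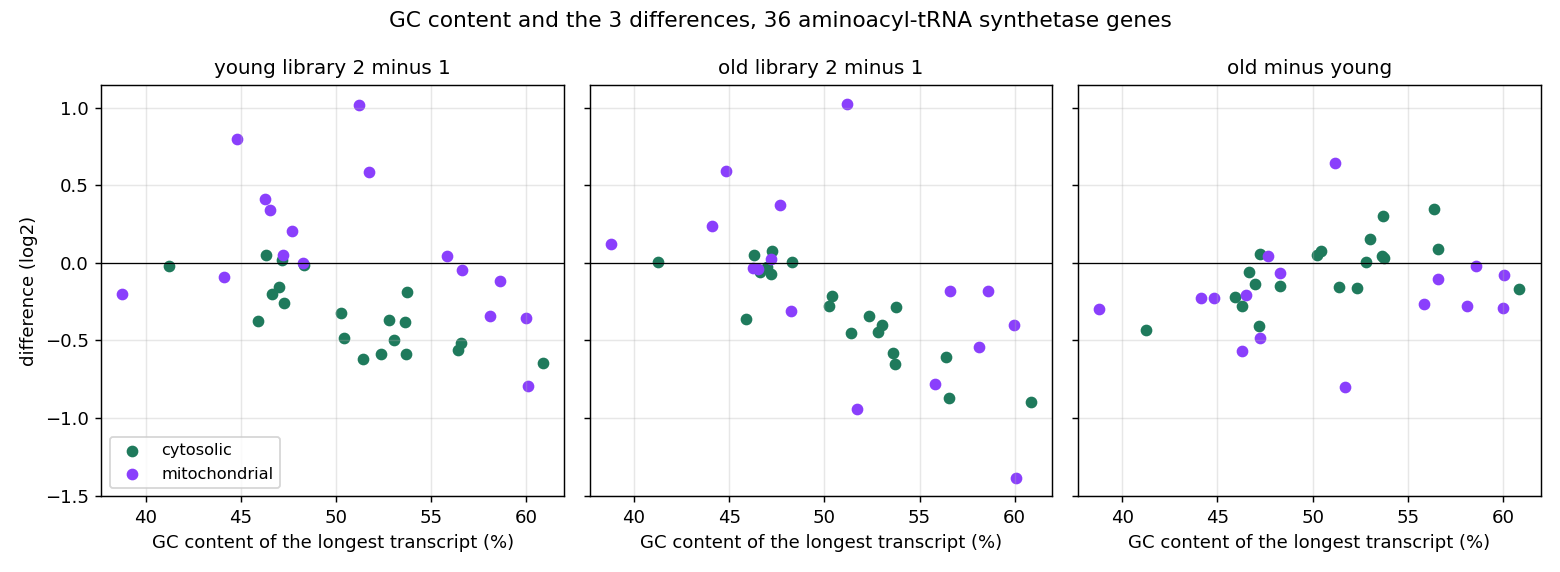
GC content of the longest protein-coding transcript (percent) of the 36 genes against 3 log2 differences: second minus first young library, second minus first old library, and old minus young. In both panels of library differences the GC-rich genes lie lower (rho of -0.51 and -0.73 over all 36), and in the panel of the age difference they lie higher (0.37).

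The cytosolic and mitochondrial enzymes of the same amino acid were set side by side as 17 pairs of genes. In 14 pairs the cytosolic gene had the higher level per length in all 4 libraries, and the median ratio was 3.07 in young and 3.14 in old ETP. The widest ratios were those of *Eprs* over its mitochondrial counterparts, with a mean of 16.5 over *Pars2* and 15.8 over *Ears2* in young ETP. The ratio of *Lars* over *Lars2* was 0.122 and 0.0542 in the young and 0.0687 and 0.0330 in the old libraries, so the mitochondrial gene was the higher in every library. *Cars* over *Cars2* was also below 1 in all libraries, at 0.727 and 0.466 in the young and 0.862 and 0.95 in the old libraries. *Yars* over *Yars2* lay on both sides of 1, from 0.596 to 1.31.

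The fitted change of the cytosolic gene was above that of its mitochondrial counterpart in 13 pairs and below it in 4. The pairs share genes, as *Eprs* was set against both *Ears2* and *Pars2*, and *Fars2* against both *Farsa* and *Farsb*. In 4 pairs the ratio was higher in both old than in both young libraries. *Aars* over *Aars2* was 3.91 and 3.41 in the young and 6.10 and 5.31 in the old libraries. *Iars* over *Iars2* was 2.32 and 2.21 in the young and 2.88 and 2.85 in the old libraries, with values of an age closer than the ages were to each other. *Cars* over *Cars2* (above) and *Mars* over *Mars2*, from 3.91 and 3.94 to 5.64 and 4.24, were the others. *Farsb* over *Fars2* was the pair with a lower ratio in both old libraries, at 4.01 and 4.30 in the young and 3.40 and 3.99 in the old libraries. The ratios of the other 12 pairs overlapped between the ages. How often ratios of other genes separate in this way was not counted, so these counts are descriptions only.

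**Figure D5:**
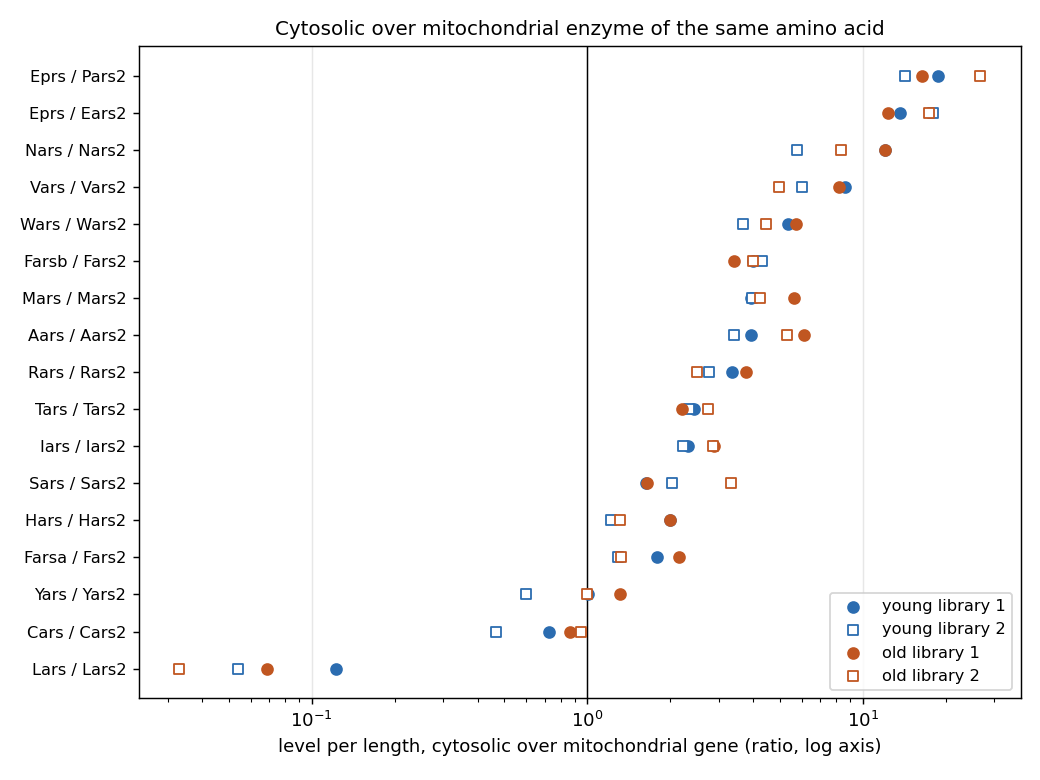
Ratio of the level per length of the cytosolic gene to that of the mitochondrial gene for the same amino acid (log axis) in each library, for 17 pairs ordered by their mean in young ETP. The vertical line marks equal levels; 14 pairs lie to its right in all 4 libraries, and the pairs of *Lars2* and *Cars2* lie to its left in all 4.

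Summed per length, the 20 cytosolic genes were at 1666 and 1725 in the young and 1470.4 and 1463 in the old libraries. The 16 mitochondrial genes summed to 880.1 and 1850.3 in the young and 1136 and 2382 in the old libraries, and most of this was *Lars2*. Without it the other 15 mitochondrial genes summed to 307 and 394 in the young and 265 and 285 in the old libraries. So the sum without *Lars2* was lower in both old libraries, while the sum with it overlapped between the ages. The ratio of the cytosolic to the mitochondrial sum was 1.89 and 0.932 in the young and 1.29 and 0.614 in the old libraries with *Lars2*, and 5.43 and 4.38 in the young and 5.54 and 5.14 in the old libraries without it. On the CPM scale the cytosolic sums overlapped between the ages, at 2600.3 and 2195 in the young and 2361 and 2003 in the old libraries.

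The multisynthetase complex holds 8 of the cytosolic genes. Of these, 7 were lower in old ETP (median difference of log2 -0.16). Both old libraries lay below both young libraries in CPM for 4 of the 8 (*Dars*, *Eprs*, *Iars* and *Lars*). Of all genes tested, 1565 of 10080 (15.5%) had this pattern. Per length the ages of *Iars* overlapped and those of *Rars* did not, and the share of all genes was not counted on that scale. *Mars*, the methionyl enzyme of the complex, was the exception at 0.03. Of the 12 cytosolic genes outside the complex, 9 were higher and 3 lower, with a median of 0.05. These counts are from the fit with all libraries. Of all 20 cytosolic genes, 18 were lower without the second young library, without the first old library and on both FPKM scales. The 9 genes were therefore not all higher in those fits. Without the first young library, 6 of the 20 were lower. None of the 20 passed edgeR (adjusted p = 0.999 for each). The 3 scaffold genes of the complex were all lower, at -0.12 for *Aimp1*, -0.13 for *Aimp2* and -0.18 for *Eef1e1*, with ages that overlapped. By catalytic fold, the median was -0.16 for the 18 class I enzymes and -0.06 for the 17 class II enzymes, with *Eprs*, which holds both folds, left aside.

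Neighbouring steps of translation were read from lists of genes chosen by function, with earlier results of these data known. Of 14 tested genes for other aminoacylation and tRNA quality steps, 13 were lower in old ETP (median log2 fold change -0.21). *Pstk*, the kinase for seryl-tRNA in selenocysteine synthesis, was at 11.5 and 11.1 CPM in young and 8.81 and 2.40 CPM in old ETP (-0.96), and *Tarsl2*, a further threonyl synthetase, was at 19.3 and 18.3 CPM in young and 15.4 and 13.3 CPM in old ETP (-0.38). Of 21 tested genes of tRNA processing and export, 12 were lower and 9 higher (median -0.23). In that list *Rpp38*, a subunit of the nuclease that trims the 5′ end of tRNAs, had a log2 fold change of -0.89 and *Trnt1*, which adds the CCA end, of -0.54, and both overlapped between ages. Of 9 mitochondrial translation factors, 8 were lower (median -0.12), with the release factor *Mtrf1* at -0.53 and the ribosome recycling factor *Mrrf* at -0.33. Of 5 cytosolic elongation factors, 4 were lower (median -0.11), with *Eef1g* at -0.25 and *Eef1a1* at -0.23. No gene of these lists passed edgeR or had an unadjusted p under 0.05.

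Genes of amino acid supply and of the ATF4 response differed in both directions. Of 16 tested genes of the ATF4 and integrated stress response list, 10 were higher in old ETP (median log2 fold change 0.52). The libraries of an age differed by more, with 15 of the 16 lower in the second young library and 14 in the second old library. The median differences, second minus first, were a log2 of -0.80 and -0.81. By edgeR 0 of the 16 passed and 1 had an unadjusted p under 0.05. That gene, *Sesn2*, a stress-induced inhibitor of mTORC1 signalling, was at 5.91 and 5.77 CPM in young and 13.0 and 10.9 CPM in old ETP (1.03 ± 0.38, adjusted p = 0.831, edgeR). *Atf3* had the largest difference of the list, 1.85, but was at 30.3 and 0.320 CPM (2 fragments) in young and 105 and 7.84 CPM in old ETP, so that its first libraries exceeded its second libraries by more than the ages differed. *Atf4* itself was at 228 and 95.3 CPM in young and 348 and 135 CPM in old ETP, and the ages overlapped. Of 9 tested amino acid transporters, 4 were higher and 5 lower. *Slc43a1*, a transporter of large neutral amino acids, was at 63.8 and 74.2 CPM in young and 40.5 and 35.7 CPM in old ETP (-0.85 ± 0.26, adjusted p = 0.648, edgeR), and *Slc3a2*, the heavy chain of several amino acid exchangers, had a fold change of 0.54 with ages that overlapped. The tryptophanyl gene *Wars* is known to be induced by interferon gamma. It was at 71.1 and 54.5 CPM in young and 77.5 and 51.9 CPM in old ETP, with ages that overlapped, while all 10 interferon-inducible genes listed beside it had higher fitted levels in old ETP (median 0.23), led by *Tap1* at 1.06 and *Psmb9* at 1.04 (adjusted p = 0.456 and 0.628, edgeR).

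Promoters of the members were read for the letters TTNCATCA, the core of the amino acid response element that ATF4 binds with a C/EBP partner, and for CACGTG, the E-box, each on both strands, over 250 bases before to 50 after the start annotated by RefSeq (GRCm38.p6). A promoter was given for 27 members, 13 cytosolic and 14 mitochondrial. The response element letters were in 5 of the 13 cytosolic promoters, in 0 of the 14 mitochondrial promoters and in 3.97% of 32851 promoters of that table. The E-box letters were in 4 of 13, 1 of 14 and 7.15%, with *Farsb* and *Ears2* as the members that held the E-box only. The 5 cytosolic promoters with the response element letters are shown because no mitochondrial promoter given held these letters, from 170 bases before to 30 after the start, with either motif in capitals. The CACGTG of *Aars*, *Iars* and *Tars* and the TTNCATCA letters did not overlap.
Aars: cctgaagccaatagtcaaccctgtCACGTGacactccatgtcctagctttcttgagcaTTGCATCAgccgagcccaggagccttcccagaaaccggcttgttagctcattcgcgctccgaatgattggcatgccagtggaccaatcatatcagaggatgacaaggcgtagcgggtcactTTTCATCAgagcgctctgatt
Gars: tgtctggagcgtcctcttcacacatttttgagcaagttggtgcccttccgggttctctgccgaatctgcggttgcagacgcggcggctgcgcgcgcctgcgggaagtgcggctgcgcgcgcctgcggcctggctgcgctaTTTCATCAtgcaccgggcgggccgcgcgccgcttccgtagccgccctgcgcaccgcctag
Iars: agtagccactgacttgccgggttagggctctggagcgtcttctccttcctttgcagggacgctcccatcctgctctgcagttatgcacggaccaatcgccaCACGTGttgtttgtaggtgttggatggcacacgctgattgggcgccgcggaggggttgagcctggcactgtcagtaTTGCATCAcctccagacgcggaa
Tars: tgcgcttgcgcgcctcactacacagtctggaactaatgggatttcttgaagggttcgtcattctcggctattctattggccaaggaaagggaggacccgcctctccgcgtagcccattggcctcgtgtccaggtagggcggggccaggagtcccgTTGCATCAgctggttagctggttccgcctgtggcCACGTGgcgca
Yars: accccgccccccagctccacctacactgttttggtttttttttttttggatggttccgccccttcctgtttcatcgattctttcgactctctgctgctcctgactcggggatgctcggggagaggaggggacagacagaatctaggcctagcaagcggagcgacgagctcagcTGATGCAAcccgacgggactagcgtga

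*Aars* lies on the plus strand (chr8:111033672-111033871 is shown) and holds the response element letters at 2 places. The windows of *Gars* (chr6:55037831-55038030) and *Iars* (chr13:49681960-49682159) are on the plus strand, that of *Tars* (chr15:11399629-11399828) on the minus strand and that of *Yars* (chr4:129189733-129189932) on the plus strand, where the letters are read on the opposite strand. Of these 5 genes, 3 were higher and 2 lower in old ETP, from -0.15 for *Iars* to 0.35 for *Aars*, with a median log2 fold change of 0.01. The 8 other cytosolic genes with a promoter had a median of -0.16, with 3 higher and 5 lower, and the 7 without a promoter in that table had a median of 0.04. *Gars* was at 117 and 93.4 CPM in young and 119 and 98.3 CPM in old ETP, and *Yars* was at 55.9 and 43.2 CPM in young and 57.4 and 42.0 CPM in old ETP. *Tars* was at 87.8 and 76.4 CPM in young and 80.6 and 77.3 CPM in old ETP. Each of these 3 genes differed more between the libraries of an age than between the ages.

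Some members share sequence with other genes. In the GENCODE annotation of GRCm38, 13 of the 36 have exonic positions that another gene also covers, mostly on the opposite strand, and without a stated strand setting the reads of such partners cannot be told apart. The largest such stretch was 2034 exonic bases between *Iars2* (chr1:185284726-185329396, minus strand) and *Rab3gap2* on the opposite strand, and *Rab3gap2* itself had a log2 fold change of -0.10 ± 0.28. *Aars* shares 1326 bases with *Exosc6* on the same strand. *Hars* and *Hars2* lie head to head and share 195 bases, and *Mars* shares 68 bases with *Ddit3*, an ATF4 target on the opposite strand. A stretch of the transcript of *Iars* (49.9% of its length) matches the processed pseudogene *Gm4849* at 95% identity or more. The values of these genes are uncertain to that extent. Of the 7 members whose ages differed in CPM by more than their libraries did, *Dars*, *Eprs*, *Mars2* and *Yars2* have no such partner.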

How the data were processed

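RNA of sorted ETP was amplified with a Nugen Ovation RNA-Seq kit and sequenced in pairs. Per the labels and the study's methods, the authors aligned reads with STAR 2.3.0 to GRCm38 (mm10). DESeq 1.12.1 (the study's methods give another version), HTSeq 0.5.4p3, Cuffdiff and Cufflinks 2.1.1 are further tools in the submitters' processing notes. The authors' deposited table holds an estimated count of fragments per gene and library, 95.7% to 96.1% of them whole numbers within 1e-06. It also holds FPKM that the authors scaled by transcript length, and these keep a difference in depth, with sums of 122998 to 281542 per library. Strand setting and filters were not given in the sources used here.

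Estimated counts were rounded, normalized by TMM and compared between ages with edgeR 4.0.16 (quasi-likelihood, no covariate beside age) in R 4.3.3, over the 10080 genes at or above an FPKM of 1 in 2 or more libraries, and adjusted p (Benjamini-Hochberg) under 0.05 was called. The SE is the log2 fold change divided by the root of the F statistic. At these depths 3 counts, the limit that a count of 0 allows, come to 0.176 to 0.654 CPM, for counting error only. The libraries of an age differed by more than sampling noise (chi-square per gene of 70.9 and 83.1). The fit was run on simulated data with changes of log2 2 and 4 and the same spread for every gene. It recovered 98 and 100 of 100 changed genes, with 9 unchanged genes called. The members' differences are smaller and the real libraries were not simulated in their spread, so this does not show the power for the members. Transcripts, exons and shared stretches (BLAST 2.17.0, at least 50 bases at 95% identity) came from GENCODE vM21, and promoters from RefSeq.

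The members and gene lists were chosen with earlier results of these data known. Values in full were given for the 3 highest and 3 lowest fold changes and the 2 highest levels of each compartment, for members that did not overlap with an absolute log2 fold change of at least 0.5, and for the 2 largest changes of each list. Other members and list genes, such as *Atf4*, were named after their values were seen. Alternatives were DESeq2 1.42.0, other scalings and filters, limma 3.58.1 on log2(FPKM + 1) and log2(FPKM + 0.1), the replicate number as a term, and each library left out.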

Additional observations from a re-analysis of the deposited data

How the results depend on the processing

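With 2 libraries per age and 0 genes called by edgeR, the values of single members are limited by the spread between libraries, and the shallower second libraries hold the least precise values. Genes called numbered 210 higher and 15 lower with DESeq2, 474 higher and 34 lower without a filter, and 0 to 218 higher and 0 to 3 lower with a library left out, the most without the first old library. Of the members, 0 were called in each of these fits. With the replicate number as a block, 578 genes were called higher and 199 lower (7.71% of genes) and 1 member was called, *Lars2* (log2 fold change 0.64, adjusted p = 0.00227, edgeR). The labels do not say that the number links libraries, although the differences between the libraries of young and of old ETP had r = 0.67 across the 36 members and 0.73 across all genes tested.

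The cytosolic median log2 fold change was -0.30 with limma on log2(FPKM + 1) and -0.32 on log2(FPKM + 0.1), where the median of all genes was -0.27 and -0.33, and the mitochondrial median was -0.34 and -0.49. On these scales *Sars* was at -0.11 and -0.13 and *Hars2* at -0.21 and -0.25, against positive values in edgeR. With a library left out, the cytosolic median ran from -0.16 to 0.19, the mitochondrial median from -0.26 to -0.14, *Sars* from -0.072 to 0.43, *Cars* from -0.032 to 0.63, *Kars* from -0.43 to 0.19, *Vars2* from -0.083 to 0.039, *Hars2* from -0.18 to 0.26 and *Lars2* from 0.02 to 1.24. The cause was not tested. The summed cytosolic level in old over young ETP was 0.865 per length and 0.91 in CPM, and the mitochondrial sum was 1.29 with *Lars2*, 0.785 without it, and 0.832 to 2.00 with a library left out. A filter of an FPKM of at least 5 kept 8 of the 16 mitochondrial members. Each fit with 3 libraries assumes that the age with a single library left varies as the other does. Of 154 comparisons of a named member's value with an alternative, 140 kept their direction and their side of the threshold. As 0 members were called in the main fit, this count mostly reads the sign. It does not measure whether the size held: *Lars2* at 0.02 and at 1.24, against 0.64 in the main fit, was counted as kept.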
